A study of Homo sapiens with 8 samples.

Results

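The genes described here make cholesterol or control its making: HMGCS1, MVD, IDI1, FDFT1, SQLE, LSS and DHCR7, which are enzymes of the pathway, and INSIG1, a regulator of it. The rule goes by gene name: a row of the authors' deposited tables belongs to the set when its gene name equals a listed name. Of the 8 names, 7 were found this way among 33575 rows at day 0 and 34690 rows at day 3.5. LSS stands only in a merged row named AP001468.1,LSS, whose reads cannot be split between both genes, so it is given beside the 7 and is not counted with them. The set was named for synthesis and uptake, but none of the listed names is an uptake gene; uptake genes are described with the wider pathway.

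The RNA came from H9, an established line of human embryonic stem cells, kept on gels in medium conditioned by feeder cells. Undifferentiated cells (day 0) and cells induced toward mesoderm with bFgf, Activin, VEGF and BMP4 (day 3.5) were each taken from a soft gel of 400 Pa and a stiff gel of 60 kPa, and all groups come from this 1 line. The 4 groups hold 2 libraries each, labelled as replicates without saying whether they were separate cultures, so the authors' p-values cover only how these libraries vary, and that variation may be technical. Per gene and group the authors deposited 1 FPKM (fragments scaled by transcript length and by library size), so no value per library, no SD and no depth is known here.

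Cholesterol is built from acetyl-CoA through mevalonate, isoprenoids, squalene and lanosterol. When sterols in the endoplasmic reticulum run low, SCAP carries the SREBP transcription factors to the Golgi, where they are cut and released to switch on nearly every gene of the pathway. When sterols are plentiful, INSIG proteins hold SCAP in the endoplasmic reticulum; INSIG1 is itself an SREBP target, so its RNA is known as a sensitive reporter of this loop. SREBP acts at promoters together with NF-Y, which binds the CCAAT box, and Sp1, which binds GC boxes.

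The promoters of the enzymes with the widest differences between the gels at day 3.5 (HMGCS1 and MVD) and of the regulator are shown because these elements lie in them. The 250 bases before an annotated start are given 5′ to 3′ on the gene's strand, from RefSeq on GRCh38.p14, with the CCAAT box in capitals (CCAAT, or ATTGG where it lies on the other strand). They lie at chr5:43313413-43313662 on the minus strand for HMGCS1, chr16:88663092-88663341 on the minus strand for MVD, and chr7:155297628-155297877 on the plus strand for INSIG1.
HMGCS1: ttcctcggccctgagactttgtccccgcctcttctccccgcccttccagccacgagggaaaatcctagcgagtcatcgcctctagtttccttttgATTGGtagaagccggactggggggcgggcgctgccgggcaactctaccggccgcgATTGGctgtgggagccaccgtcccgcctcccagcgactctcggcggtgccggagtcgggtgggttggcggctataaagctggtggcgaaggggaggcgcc
MVD: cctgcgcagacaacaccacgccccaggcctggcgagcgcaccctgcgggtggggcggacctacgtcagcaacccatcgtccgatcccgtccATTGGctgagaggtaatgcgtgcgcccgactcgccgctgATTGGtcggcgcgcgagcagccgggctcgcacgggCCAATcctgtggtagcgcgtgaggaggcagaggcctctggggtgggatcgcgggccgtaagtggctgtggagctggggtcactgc
INSIG1: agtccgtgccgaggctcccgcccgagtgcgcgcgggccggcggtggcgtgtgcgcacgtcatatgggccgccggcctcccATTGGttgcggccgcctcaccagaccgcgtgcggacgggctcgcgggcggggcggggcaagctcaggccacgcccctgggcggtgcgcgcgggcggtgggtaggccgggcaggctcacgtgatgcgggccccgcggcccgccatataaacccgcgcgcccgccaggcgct

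HMGCS1 holds 2 CCAAT boxes in this window, MVD 3 and INSIG1 1. Another annotated start of HMGCS1, whose window lies at chr5:43313182-43313431 and is not shown, had 0. Of the 8 listed genes 6 had an entry in the promoter table, with 10 annotated starts in all. Each of these 6 genes (HMGCS1, INSIG1, IDI1, DHCR7, MVD and LSS) had a CCAAT box before at least 1 start, and 7 of the 10 starts had one. Of all 35116 promoters of the same length, 32.0% hold CCAAT on either strand. The GC box GGGCGG lay before 9 of the 10 starts, against 42.6% of all promoters. The letters TCACNCCAC, a core form of the sterol regulatory element that SREBP binds, were found before none of the 10 starts, and 0.883% of all promoters hold them. The E-box CACGTG was found before INSIG1 only, and 6.34% of all promoters hold it. All motifs were searched on both strands, none is contained in another, and several starts of a gene share bases. These are letter matches in a short window and nothing was measured on binding.

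All 7 genes were well expressed in every group. FDFT1, squalene synthase, which joins farnesyl units into squalene as the first committed step to sterols, had the highest level, between 175 and 238 FPKM. It lay above 95.7% to 97.1% of the loci tested in its group. HMGCS1, which makes HMG-CoA in the cytosol, lay between 61.8 and 86.2 FPKM, and SQLE, squalene epoxidase, between 57.0 and 74.3. IDI1, which interconverts the isoprenoid building blocks, lay between 38.7 and 64.7 FPKM, and DHCR7, which performs the last step to cholesterol, between 31.2 and 34.4. The lowest were MVD, the decarboxylase that ends the mevalonate steps, between 14.6 and 23.5 FPKM, and INSIG1 between 14.9 and 42.2. FPKM is scaled per length, so these levels can be set side by side.

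The order of levels was nearly the same in the 4 groups. At day 0 it ran FDFT1, HMGCS1, SQLE, IDI1, DHCR7 on both gels, with INSIG1 and MVD last and in exchanged places. At day 3.5 INSIG1 stood above DHCR7 on both gels, and MVD was last. On the soft gel at day 3.5, SQLE (74.3 FPKM) stood above IDI1 and HMGCS1, which were both at 64.7. FDFT1 was 10.1 to 14.3 times the lowest of the 7 within a group. Without values per library, whether neighbours in this order differ beyond their spread was not tested. The row AP001468.1,LSS, which holds lanosterol synthase, was lower than any of the 7 at day 0 and at day 3.5, at 8.15 and 11.7 FPKM on the soft and stiff gel and then at 15.7 and 17.7.

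**Figure D1:**
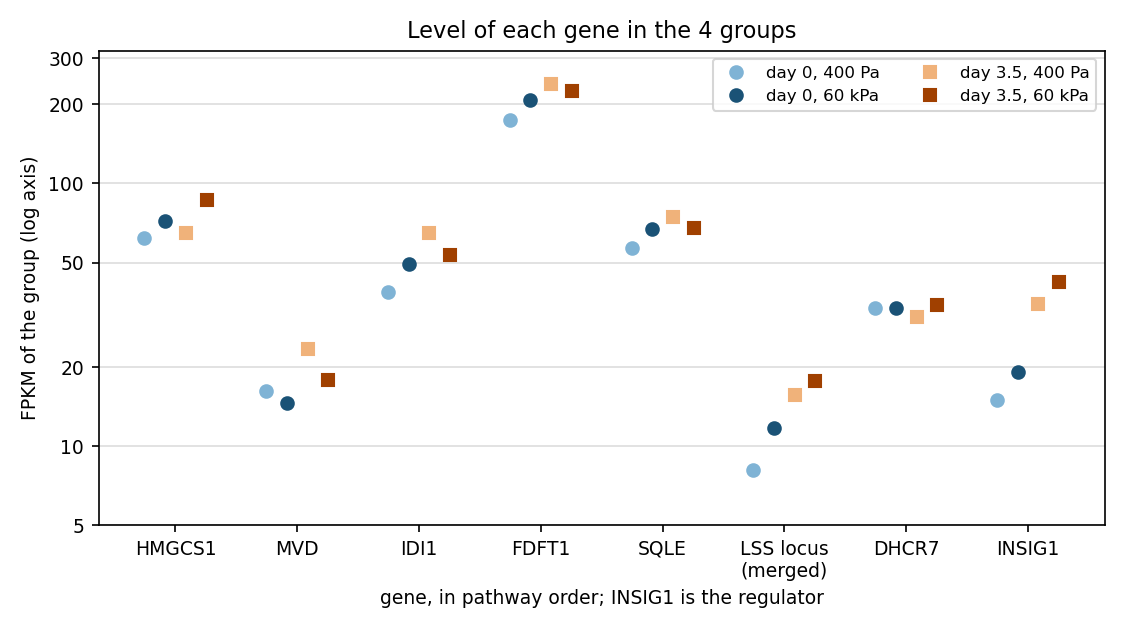
The plot gives the deposited FPKM (log axis) of the 7 genes and of the merged LSS row in each of the 4 groups, 1 point per group of 2 libraries with no error available. FDFT1 lies highest at 175 to 238 FPKM, and the INSIG1 points of day 3.5 (34.7 and 42.2) stand apart from those of day 0 (14.9 and 19.2).

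The loci lie on hg19 at chr5:43287703-43313655 (HMGCS1), chr16:88718316-88729569 (MVD), chr10:1034338-1178409 (IDI1), chr8:11653082-11697154 (FDFT1), chr8:126010739-126034525 (SQLE), chr21:47604993-47648738 (the LSS row), chr11:71139239-71163914 (DHCR7) and chr7:155089486-155102735 (INSIG1), with 1 added to the deposited starts. The IDI1 interval of 144072 bases is a bundle that the table shares between IDI1, GTPBP4, IDI2-AS1 and WDR37, each with its own row. The GENCODE release 29 annotation places an opposite-strand gene over HMGCS1, IDI1, FDFT1, DHCR7 and LSS, and since the strand setting of the counting is not given in the sources used here, their reads cannot be told apart from it. None of the 8 genes holds a small RNA gene there.

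The first comparison asked whether the pathway depended on stiffness in undifferentiated cells. In the stem cells, 6 of the 7 genes had the lower FPKM on the soft gel, by at most 1.28-fold, and none was called. FDFT1 had 175 FPKM on the soft gel and 208 on the stiff gel, SQLE was at 57.0 and 67.0, and HMGCS1 at 61.8 and 72.1. IDI1 was at 38.7 and 49.2 FPKM, and INSIG1 at 14.9 and 19.2. These 5 genes were thus 1.17 to 1.28 times higher on the stiff gel. DHCR7 was at 33.5 and 33.6 FPKM, equal to within 1.00006-fold before rounding. MVD alone was higher on the soft gel, at 16.2 and 14.6 FPKM.

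Changes are given as log2((FPKM + 1) on 400 Pa / (FPKM + 1) on 60 kPa); a negative value is lower on the soft gel; the added 1 shrinks the change of low genes slightly. The median of the 7 was -0.23, from -0.34 (INSIG1) to 0.14 (MVD), beside 0.02 over all 17761 loci that the authors tested and that reached 1 FPKM on either gel. Of all those loci 46.1% had the lower value on the soft gel. A change as large as that of SQLE or larger, in either direction, was seen in 40.8% of them, and as large as that of INSIG1 in 26.1%. The sizes seen in the set are therefore common among the loci.

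A gene was called when its q in the authors' deposited table was below 0.05. In the authors' deposited table none of the 7 genes was called at day 0 and 0 had an unadjusted p below 0.05, where 0.141% of all loci were called and 1.82% had such a p. The smallest p of the 7 in the authors' deposited table was 0.209, for INSIG1, and every q there was at least 0.9998. A standard error (SE) can be implied from the deposited log2 ratio and test statistic. It is the SE of that ratio, also where it is given beside a change with the added 1. The implied SE was between 0.33 (SQLE) and 0.76 (MVD) for the 7 genes. The approximate 95% interval of the log2 ratio was -0.88 to 0.42 for SQLE, -0.93 to 0.43 for FDFT1 and -1.20 to 0.48 for INSIG1, so changes of these sizes could not be told from none. The LSS row had the change farthest from 0, -0.47, with an SE of 1.02 and p = 0.184 in the authors' deposited table.

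The same question was then put to the induced cells, where the 7 genes split in direction and again none was called. At day 3.5 MVD, IDI1, SQLE and FDFT1 had the higher FPKM on the soft gel, and HMGCS1, INSIG1 and DHCR7 the higher FPKM on the stiff gel. HMGCS1 had the largest difference of the set, 64.7 FPKM on 400 Pa and 86.2 on 60 kPa, a change of -0.41 with an SE of 0.58 (p = 0.213 in the authors' deposited table). MVD had the largest one in the other direction, 23.5 and 17.9 FPKM, a change of 0.37 with an SE of 0.57 (p = 0.265 in the authors' deposited table). HMGCS1 acts early in the mevalonate steps and MVD ends them, so the extremes lie in the same stretch of the pathway.

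IDI1, the next enzyme after MVD, had 64.7 FPKM on the soft gel and 53.7 on the stiff gel. SQLE was at 74.3 and 67.6 FPKM, and FDFT1 at 238 and 225. INSIG1 was at 34.7 and 42.2 FPKM, and DHCR7 at 31.2 and 34.4. These 5 genes differed between the gels by 1.06 to 1.22-fold, with the regulator and the last enzyme on the stiff side. The median change of the 7 was 0.08, beside 0.02 over the 18720 loci tested at this day, of which 48.1% were lower on the soft gel. With the LSS row added, which was at 15.7 and 17.7 FPKM, the median was -0.03, so its sign rests on the choice of genes.

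In the authors' deposited table none of the 7 was called at day 3.5 and 0 had an unadjusted p below 0.05, while 1.32% of all loci were called and 5.83% had such a p. A change as large as that of HMGCS1 was seen in 33.4% of the loci, and as large as that of FDFT1 in 83.0%. The approximate 95% interval of the log2 ratio was -1.55 to 0.72 for HMGCS1, -1.26 to 0.69 for INSIG1 and -0.82 to 0.99 for FDFT1, so none of these differences could be told from 0. The absence of a call does not show that the levels were equal.

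Marker sums moved with the gel at this day, and they are given here because the samples are bulk RNA; no listed marker was at 0. Pluripotency markers (6 of 6 listed in both groups) summed to 436 FPKM on the soft gel and 725 on the stiff gel. SOX2 (54.0 and 164) and LIN28A (131 and 239) differed most in FPKM. DPPA4 was at 131 and 181 and PRDM14 at 4.45 and 17.1, while POU5F1 was at 114 and 122 and NANOG at 2.46 and 3.16. Nascent mesoderm markers (5 of 5 listed) summed to 39.6 and 24.95. Lateral and extraembryonic mesoderm markers (5 of 5 listed, PDGFRA from a row merged with FIP1L1) summed to 181 and 75.02. Among them HAND1 (53.8 and 6.07) and TBX3 (42.4 and 4.90) differed most, and the PDGFRA row was at 74.2 and 61.9. Amnion and trophoblast markers (4 of 4 listed) summed to 118 and 22.3, with VTCN1 the largest part on the soft gel (81.3 and 7.44). Of the 4 fibroblast markers, which summed to 218 and 59.6 FPKM, LUM (136 and 4.69) and DCN (38.7 and 3.79) carried the difference, while COL1A2 (18.2 and 24.2) and THY1 (25.5 and 26.8) were higher on the stiff gel. Neuroectoderm markers (3 of 3 listed) summed to 86.5 and 171, a difference carried by OTX2 (69.3 and 152). PAX6 was at 17.2 and 19.6 FPKM and SOX1 at 0.0101 and 0.0267. Both definitive endoderm markers were below 1 FPKM on both gels, and of the hepatocyte markers ALB was below 1 and APOA2 at 1.62 and 0.235. In the authors' deposited table HAND1, TBX3, GATA6, FOXF1, VTCN1, CDX2, LUM and DCN were called higher on the soft gel at day 3.5. PRDM14 and OTX2 were called higher on the stiff gel, and no other listed marker was called. Of all loci 1.32% were called at that day. At day 0 the pluripotency markers summed to 1347 FPKM on the soft gel and 1421 on the stiff gel, and all 5 nascent mesoderm markers were below 1 on both. Neuroectoderm markers summed to 137 and 82.4 FPKM at that day, and so lay the other way round than at day 3.5. Nearly all of this sum was OTX2, while PAX6 (0.597 and 0.167) and SOX1 were below 1 FPKM on both gels. Fibroblast markers summed to 145 and 199, mostly THY1 (135 and 191), which was lower at day 3.5. COL1A2 was at 9.45 and 7.75 FPKM, LUM at 0.0797 and 0.0223 and DCN at 0.0977 on the soft gel. The fibroblast sum of day 0 thus stands for THY1 and does not by itself show fibroblasts. Lateral and extraembryonic mesoderm markers (4 of 5 listed) summed to 79.1 and 68.9, mostly the merged PDGFRA row. Amnion and trophoblast markers (3 of 4 listed) summed to 3.29 and 0.557 FPKM. TFAP2A (2.41 and 0.465) was the only marker called at day 0, higher on the soft gel (q = 0.0390 in the authors' deposited table). That call rests on low values: the implied SE was 1.98 and the approximate 95% interval of the log2 ratio -1.51 to 6.25. SOX1, FOXA2 and DCN on the stiff gel and ALB on the soft gel were listed at 0 at day 0. The part of these cell types, at either day, in the values of the cholesterol genes was not tested, and fewer cells of a type and less RNA per cell cannot be told apart in bulk samples.

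**Figure D2:**
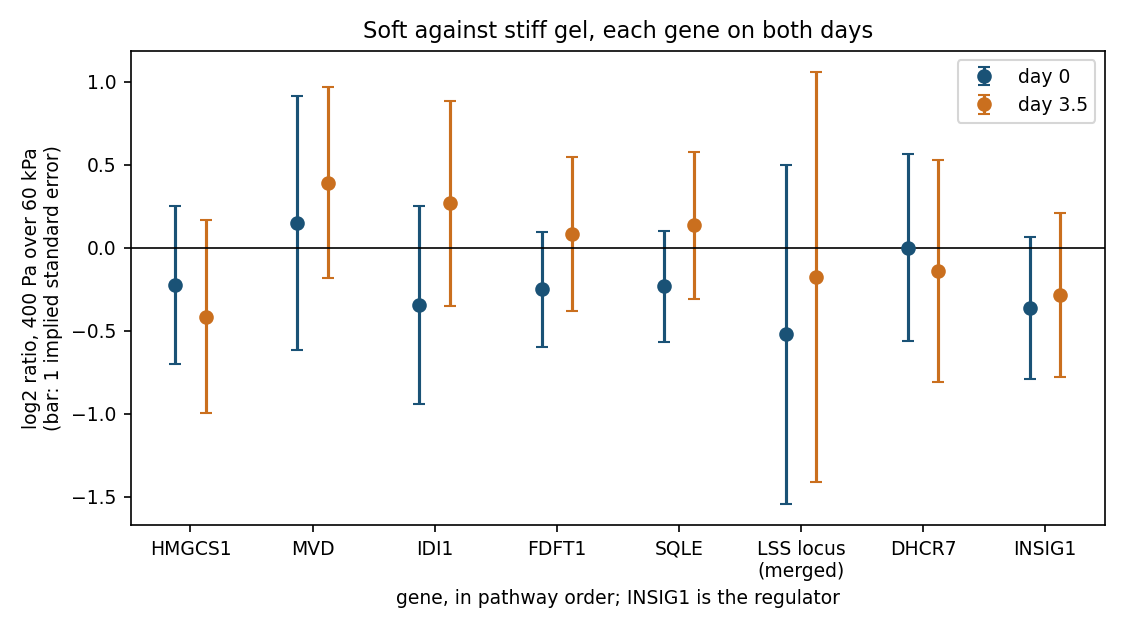
The plot gives the log2 ratio of the deposited FPKM, 400 Pa over 60 kPa, for each gene at day 0 and day 3.5, with bars of 1 implied SE. Every point lies between -0.52 (the merged LSS row at day 0) and 0.39 (MVD at day 3.5), and the bars of both days overlap for each gene.

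Set across the days, 3 of the 7 genes had opposite directions: IDI1, SQLE and FDFT1 were lower on the soft gel at day 0 and higher on it at day 3.5. HMGCS1, INSIG1 and DHCR7 were lower on the soft gel on both days, and MVD was higher on it on both. Of 15748 loci tested on both days, 8341 (53.0%) had opposite directions, so 3 of 7 is near that share. The change moved farthest between the days for IDI1, from -0.34 to 0.27, and least for INSIG1, from -0.34 to -0.28. Whether a change differed between the days was not tested.

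The levels of both days were then set side by side on each gel, to see which genes stood at another level in the induced cells. INSIG1 was 2.32 times its day 0 level on the soft gel (14.9 and 34.7 FPKM) and 2.20 times on the stiff gel (19.2 and 42.2). The tables were made and normalized separately, so this is a description with no test. INSIG1 stood apart from the other genes: a difference at least as large and in the same direction was seen in 4.7% of the loci on the soft gel and in 3.9% on the stiff gel. It was the member with the largest difference on both gels.

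Among the enzymes the difference between the days was not of the same size on both gels. Whether it depended on the gel was not tested. On the soft gel IDI1 was 1.67 times its day 0 level (38.7 and 64.7 FPKM), MVD 1.45 times, FDFT1 1.36 times and SQLE 1.30 times. On the stiff gel the same genes were at 1.09 times (IDI1), 1.23 times (MVD), 1.08 times (FDFT1) and 1.01 times (SQLE). HMGCS1 went the other way about, at 1.05 times on the soft gel and 1.20 times on the stiff gel. DHCR7 was at 0.929 times its day 0 level on the soft gel and 1.02 times on the stiff gel, the flattest profile of the set. The LSS row was at 1.92 and 1.51 times.

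The median difference between the days was 0.44 on 400 Pa and 0.12 on 60 kPa on the scale of log2(FPKM + 1), beside -0.04 and -0.01 over all loci tested on both days. On the soft gel 6 of the 7 were higher at day 3.5 and on the stiff gel 7, but rescaling each group to the sum without its 10 highest loci left 5 on each gel and a median of 0.02 on the stiff gel. That rescaling shifted all loci by -0.07 on the soft gel and -0.10 on the stiff gel. The 10 highest loci held 44.9% to 52.1% of the summed FPKM of a group. INSIG1 still had a difference of 1.09 on the soft gel and 0.998 on the stiff gel under it.

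**Figure D3:**
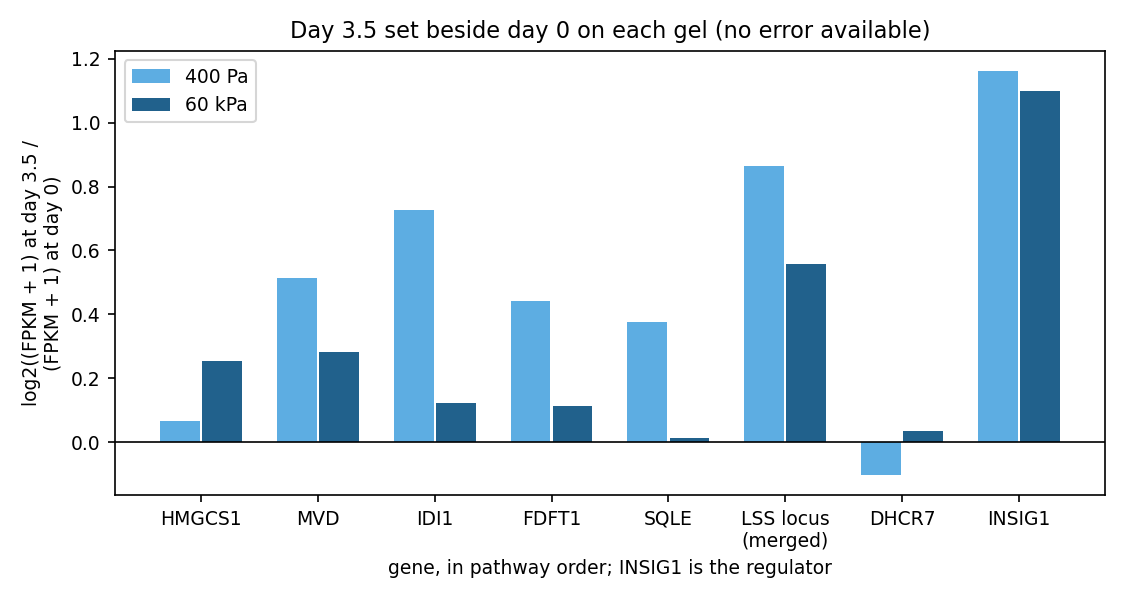
Bars give log2((FPKM + 1) at day 3.5 / (FPKM + 1) at day 0) for each gene on the soft and the stiff gel, without an error because each bar rests on 1 deposited value per group. INSIG1 is at 1.16 and 1.10, IDI1 at 0.73 and 0.12, and DHCR7 at -0.10 and 0.03.

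The wider pathway was described with 6 lists of 53 genes, of which 45 had a tested row of their own in both tables. None of the 45 was called on either day in the authors' deposited tables. Of all loci 0.141% were called at day 0 and 1.32% at day 3.5, so no call among 45 genes is near those shares. Of the 45, 2 had an unadjusted p below 0.05 at day 0 in the authors' deposited tables and 0 had one at day 3.5, against the background shares of 1.82% and 5.83% given above. At day 0 the enzymes outside the set had directions much like those of the set. At day 3.5 most were higher on the soft gel, where the set itself was split (4 of 7 higher). Of the 12 other enzymes with their own row, 10 were lower on the soft gel at day 0 (median -0.10) and 9 were higher on it at day 3.5 (median 0.13).

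Taken step by step, of the 8 mevalonate-step genes 5 were lower on the soft gel at day 0 and 2 at day 3.5. MVK, mevalonate kinase, was at 12.1 and 8.34 FPKM at day 3.5, and GGPS1, which makes geranylgeranyl diphosphate, at 18.7 and 15.4 before induction, then 14.2 and 16.5 after it. Of the 13 genes of the squalene-to-cholesterol steps, the 10 with a row of their own were all lower on the soft gel at day 0, by up to 0.37 (MSMO1, 70.7 and 91.8 FPKM). With the 3 merged rows it was 12 of 13, from -0.47 (the LSS row) to 0.28 for TM7SF2, whose row is merged with VPS51 (98.2 and 80.5 FPKM). Both counts include DHCR7, whose values were all but equal.

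At day 3.5, 7 of the 10 with their own row were higher on the soft gel. SC5D, the desaturase that makes 7-dehydrocholesterol, had the largest change, 0.74 with an SE of 0.79, at 81.2 FPKM on 400 Pa and 48.3 on 60 kPa. Its p was 0.0506 and its q 0.902 in the authors' deposited table. At day 0 SC5D had been at 50.5 and 65.3 FPKM. NSDHL, an enzyme of C4 demethylation, was at 8.36 and 5.36 FPKM at day 3.5. SC5D hands its product to DHCR7, which was at 31.2 and 34.4 FPKM at that day and so did not share that difference in direction.

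The regulators around INSIG1 were described next. SREBF2, which encodes the SREBP that mainly drives cholesterol genes, had 23.99 and 22.1 FPKM on the soft and stiff gel before induction, then 25.3 and 36.04 after it (change -0.49, SE 0.83). SREBF1, which encodes the SREBP of fatty acid genes, was at 8.99 and 7.68 FPKM and then at 14.7 and 22.6 (change -0.59, SE 0.99). Both were thus nearer to each other between the gels at day 0 than at day 3.5, and neither was called in the authors' deposited tables. SCAP, the escort of the SREBPs, was at 34.8 and 30.6 FPKM at day 0. INSIG2, the relative of INSIG1 that is not driven by SREBP in the same way, was at 7.41 and 7.83 FPKM and then at 10.6 and 10.8. Of the 6 control genes, INSIG1 included, 4 were higher on the soft gel at day 0 and 1 at day 3.5.

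Of the 10 uptake genes, 8 were lower on the soft gel at day 0 and 5 at day 3.5. NPC1, which exports cholesterol from lysosomes, was at 9.17 and 14.0 FPKM at day 0. Their directions at day 0 were thus mostly those of INSIG1 and the enzymes.

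**Figure D4:**
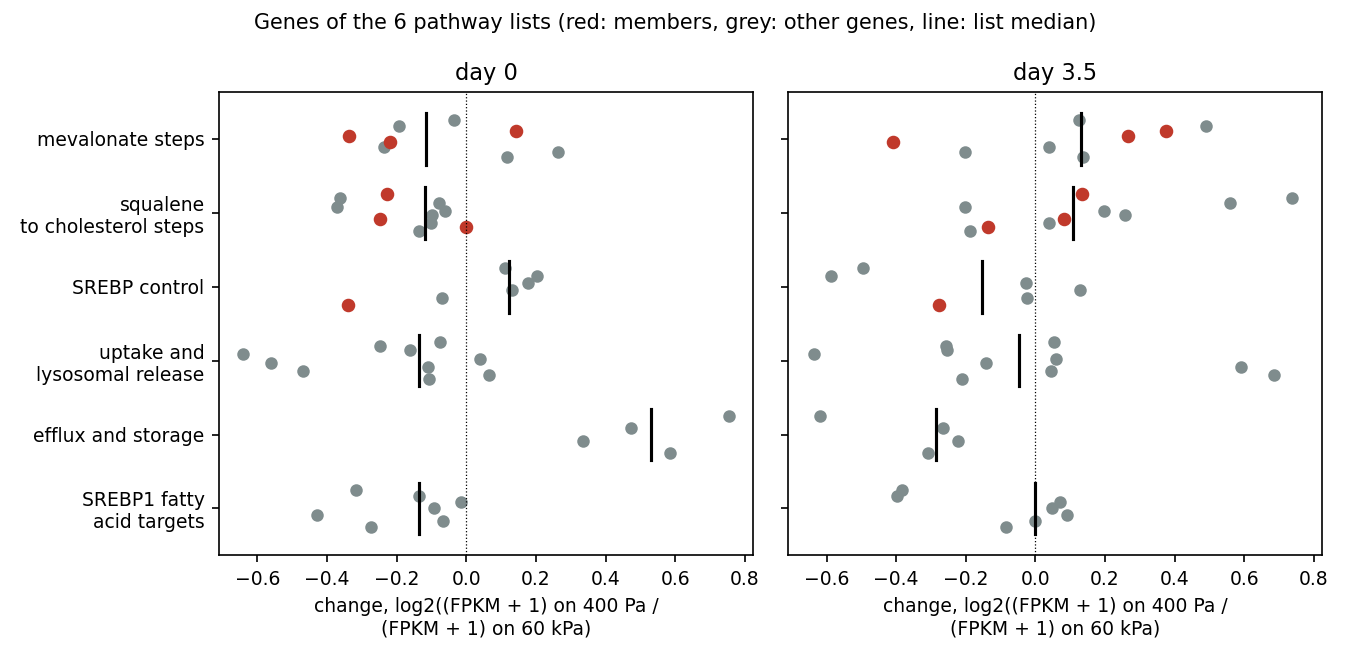
Each point is a gene with its own tested row, placed by its change (log2((FPKM + 1) on 400 Pa / (FPKM + 1) on 60 kPa)) at day 0 and day 3.5; red points are the 7 genes of the set, and a black line is the list median. The medians of the mevalonate and squalene lists are -0.12 and -0.12 at day 0, and 0.13 and 0.11 in the panel of day 3.5.

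The genes whose profile over the 4 groups lay nearest to the mean profile of the 7, by Euclidean distance of centred log2(FPKM + 1) among 8167 genes with at least 5 FPKM in every group, were STX3, RP11-69L16.5, RP11-36C20.1, SP1 and PICALM. STX3 had 30.2 FPKM on the soft gel and 34.8 on the stiff gel before induction, then 41.8 on both, at a distance of 0.020. Over 4 values many genes lie close, and the members themselves spread widely around their mean, from a distance of 0.12 (FDFT1) to 0.80 (INSIG1). Of the genes searched, 89 lay at least as near as FDFT1 and 6084 at least as near as INSIG1, so the mean profile lies far nearer to FDFT1 than to INSIG1.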

How the data were processed

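The authors deposited 1 table per day with, per locus, an FPKM for each gel (2 libraries combined into 1 value). They also deposited the log2 ratio (60 kPa over 400 Pa), a score (the test statistic), a p-value and a q-value, per the file headers. Per the submitters' processing notes, Cufflinks and build hg19 were used; the aligner, the annotation and all versions: not given in the sources used here. Of loci the authors tested, those that reached 1 FPKM on either gel were kept, every row counted, and calls are q below 0.05 in the authors' deposited tables. Recomputing the Benjamini-Hochberg adjustment gave the deposited q-values (largest difference 5.24e-07). The implied SE (log2 ratio over statistic) is approximate; the deposited p-values do not follow from the statistic by a normal curve. Members and lists were chosen with earlier results of these data known. Named were all members, SREBF2, SREBF1 and INSIG2, of each list the called genes and the 2 others with the largest change per day, and the 5 nearest profiles; some genes the rule takes are not reported here. The steps were run on simulated data with planted log2 changes of 2 and errors set lower than those of any member. That run checks the code and cannot show whether changes of the sizes seen here would be found. Alternatives were other pseudocounts, FPKM minimums, thresholds and scalings. The scripts ran on Python 3.11.15 with matplotlib 3.10.9 for plots, numpy 2.4.6 and pandas 2.3.3.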

Additional observations from a re-analysis of the deposited data

How the results depend on the processing

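No member was called on either day under any alternative run (q below 0.1, unadjusted p below 0.05, a new adjustment, other FPKM minimums, merged rows added). For the wider pathway the unadjusted p below 0.05 gave 2 genes at day 0 in place of 0. The day 3.5 median of the 7 genes (0.08) was -0.027 at the lowest when 1 gene was left out and -0.027 with the merged LSS row. The median difference between days on 60 kPa (0.12) was 0.021 after rescaling without the 10 highest loci. The cause was not tested beyond what these constructions show. The direction of each member between the gels was the same under the pseudocounts 0.1 and 0.5 and centring on the median gene. Leaving out a replicate and a test over libraries were not run. No paired analysis was possible because the columns hold 1 value per group and carry no replicate number. Depth is unknown, so no counting error can be given.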

Other observations

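The 4 genes of the efflux and storage list with their own tested row, 1 of them a regulator, lay on the other side from most synthesis enzymes. This held in both comparisons, without a call in the authors' deposited tables. Of the 18 synthesis enzymes with their own row, 15 were lower on the soft gel at day 0 and 13 were higher on it at day 3.5. At day 0 the 4 efflux and storage genes with their own tested row were higher on the soft gel (median 0.53, from 0.34 to 0.75), and at day 3.5 all 4 were lower on it (median -0.29, from -0.62 to -0.22). The NR1H3 row, merged with MADD, was lower on the soft gel on both days (-0.05 and -0.30), so with it 4 of 5 were higher at day 0. ABCG1, the last gene of that list, was below 1 FPKM in every group and was not tested. APOE, an apolipoprotein that accepts exported cholesterol, had 316 FPKM on the soft gel and 250.03 on the stiff gel before induction, then 309 and 361 after it. ABCA1, the transporter that passes cholesterol to apolipoproteins, was at 6.60 and 4.06 FPKM and then at 7.44 and 9.45; its day 0 p was 0.0240 and its q 0.9998 in the authors' deposited table. NR1H2, a sterol-sensing nuclear receptor that drives ABCA1, was at 16.9 and 11.9 and then at 9.65 and 11.8. SOAT1, which esterifies cholesterol for storage, was at 4.24 and 2.11 and then at 9.35 and 14.9. Opposite directions on both days were also seen in 53.0% of all loci tested on both days. The control genes around INSIG1 mostly lay on the same side as the efflux and storage genes. Of those 6, 4 were higher on the soft gel at day 0 and 1 at day 3.5, so the contrast is not particular to efflux and storage. This contrast between the lists was noticed after the values were seen, and whether the direction differed between the days was not tested.

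All 7 fatty acid genes driven by SREBP1 with their own row were lower on the soft gel at day 0 (median -0.14, from -0.43 to -0.02). At day 3.5 it was 4 of 7 (median -0.002). Of all loci 46.1% were lower on the soft gel at day 0 and 48.1% at day 3.5. The FADS2 row, merged with FEN1, was higher on the soft gel at day 0 (141 and 133 FPKM). With it 7 of 8 were lower at day 0 and 5 of 8 at day 3.5. SCD, the desaturase that makes oleate, had 107 FPKM (soft) and 133 (stiff) before induction, then 149.8 and 195. FASN, fatty acid synthase, was at 61.2 and 81.0 FPKM at day 3.5. ACSS2, which makes acetyl-CoA from acetate, was at 6.59 and 9.22 FPKM at day 0.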
